A study of Mus musculus with 16 samples.

Results

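The genes of hepatic fatty acid synthesis were followed in livers of control mice and of mice whose hepatocytes had lost HIRA, each sampled before and after regeneration. The members were the 10 genes Srebf1, Mlxipl, Fasn, Acaca, Acacb, Acly, Scd1, Elovl6, Me1 and Thrsp, found by gene name among the 55421 gene IDs of the count table, and all 10 passed the filter on low counts (a sum of 10 or more over the 16 libraries). De novo lipogenesis turns citrate that has left the mitochondria into long-chain fatty acids in the cytosol, and in liver it is driven after a meal by insulin through SREBP1c and by glucose through ChREBP. The products are stored or exported as triglyceride, and the same genes are known to be low in fasting.

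Bulk RNA-seq of polyA RNA from whole liver of male mice gave 4 groups of 4 libraries. Every mouse carried an AAV8 vector with the Tbg promoter, which is active in hepatocytes, so that other liver cells kept HIRA, a chaperone that places histone H3.3 into chromatin outside of replication. HIRA KO libraries came either from HIRA fl/fl mice given Tbg-Cre or from wildtype mice given saCAS9 with a guide against HIRA. Control libraries came from wildtype mice given Tbg-Cre or saCAS9 with a guide against Rosa26, with 2 samples of each approach in each group per the labels. Virus was given at 6 months of age and part of the liver was removed 4 weeks later. The removed left lateral and median lobes served as the samples before regeneration, and the liver left in place was taken 5 days later as the samples after it. Lobe, surgery and manner of collection changed together with time and cannot be told apart, and the hour at which the later samples were taken was not given in the sources used here. The columns of the count table name group and a running number from 1 to 4, so libraries are called by that number below. The number gives neither the mouse nor the deletion approach. Nothing in the table ties the columns to separate animals beyond the labels, so p-values measure the spread between these libraries. Samples before and after regeneration may come from the same operated mice. The model treated all libraries as independent, so any such pairing was ignored.

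Total counts per library ran from 15103059 to 21738619. Hira itself was lower in every HIRA KO library (3.03 to 4.56 CPM, counts scaled to library size) than in every control library (4.99 to 6.29 CPM). The 8 hepatocyte markers examined (albumin, Hnf4a and others) summed to between 114700 and 167675 CPM in every library, so the tissue label was met. On the second principal component over 13176 genes, which held 26.5% of the variance, HIRA KO libraries 1 and 2 stood apart from all others both before regeneration (-47.4 and -36.6) and after it (-40.2 and -36.2). Calls for the members are given with and without them. Adipoq, a marker of adipocytes, which make fatty acids with the same enzymes, stood at 2.49 CPM in HIRA KO library 1 before and at 3.51 CPM in control library 1 after regeneration, against at most 0.19 CPM in the other 14 libraries. The summed adipocyte markers set control library 1 apart after regeneration (87.3 against 22.0 to 32.3 CPM in the other control libraries), but not HIRA KO library 1 before it (46.4 CPM, below 74.3 and 53.3 CPM in libraries 3 and 4).

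The members fall into regulators and enzymes. Srebf1, on chromosome 11 from 60199089 to 60222581 (GRCm38, GENCODE M21, minus strand), encodes SREBP1, the sterol-element binding factor that insulin raises in liver. Mlxipl, on chromosome 5 from 135089890 to 135138382 (plus strand), encodes the glucose-responsive factor ChREBP. Thrsp, on chromosome 7 from 97412938 to 97417730 (minus strand), encodes Spot 14, a small protein linked to lipogenesis that responds to thyroid hormone and carbohydrate. Acly, on chromosome 11 from 100476353 to 100528000 (minus strand), encodes ATP citrate lyase, which cuts citrate into oxaloacetate and acetyl-CoA. Me1, on chromosome 9 from 86581371 to 86695953 (minus strand), encodes the cytosolic malic enzyme, a source of NADPH. Acaca, on chromosome 11 from 84129672 to 84401651, and Acacb, on chromosome 5 from 114146535 to 114250761 (both plus strand), encode acetyl-CoA carboxylases, of which the first makes malonyl-CoA for synthesis and the second makes it at mitochondria, where it restrains fatty acid oxidation. Fasn, on chromosome 11 from 120805846 to 120824547 (minus strand), encodes fatty acid synthase, which builds palmitate. Elovl6, on chromosome 3 from 129532355 to 129638495 (plus strand), lengthens palmitate to stearate, and Scd1, on chromosome 19 from 44394455 to 44407879 (minus strand), puts the first double bond into these chains.

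Stretches before the transcript start are shown for regulators and for enzymes that moved together below, because motifs of lipogenic factors are known from such promoters. RefSeq promoter sequences (GRCm38.p6) were given for 9 of the 10 members, with 13 starts between them, and none was used for Scd1. The 120 bases before the start are printed for 4 genes, 5′ to 3′ on the gene's strand, with capitals for CCAAT (the NF-Y box), GGGCGG (the GC box of Sp1), CACGTG (an E-box) and TCACNCCAC (a sterol element), each searched on both strands. The Fasn stretch is chr11:120824548-120824667, that of Mlxipl is chr5:135089770-135089889 and that of Acly is chr11:100528001-100528120. Srebf1 is given at a pair of its 3 starts, chr11:60220628-60220747 and chr11:60210472-60210591, since gene counts add its transcripts together.
Fasn: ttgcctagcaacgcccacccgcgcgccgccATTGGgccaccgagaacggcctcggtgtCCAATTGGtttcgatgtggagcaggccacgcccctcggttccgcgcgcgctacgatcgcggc
Mlxipl: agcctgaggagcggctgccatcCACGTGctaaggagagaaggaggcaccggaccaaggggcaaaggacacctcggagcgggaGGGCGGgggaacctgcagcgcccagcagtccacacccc
Acly: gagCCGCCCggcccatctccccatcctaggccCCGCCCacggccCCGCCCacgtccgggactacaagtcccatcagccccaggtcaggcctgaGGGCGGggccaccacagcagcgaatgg
Srebf1, middle start: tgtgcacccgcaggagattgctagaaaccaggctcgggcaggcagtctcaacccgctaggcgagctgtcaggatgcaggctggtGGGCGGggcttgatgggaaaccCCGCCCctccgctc
Srebf1, last start: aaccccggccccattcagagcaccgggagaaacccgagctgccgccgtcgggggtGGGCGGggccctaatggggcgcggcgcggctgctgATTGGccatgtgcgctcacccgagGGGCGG

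In the 250 bases before Fasn, CCAAT began at -62 on the gene's strand and at -90 and -59 on the other strand, the last overlapping the first. Thrsp, which is not printed because its stretch overlaps an annotated UTR, held CCAAT at -79 on the other strand and at -52 on its own. Acly held GGGCGG at -117, -88, -76 and -27 and no CCAAT. The printed Mlxipl start held an E-box at -98, GGGCGG at -188 and -38, and CCAAT at -173 on the other strand. The middle Srebf1 start held GGGCGG at -36 and -14. The last Srebf1 start held GGGCGG at -65 and -6, and CCAAT at -30 on the other strand. The sterol element was found once among the 13 starts, at -136 of the other Mlxipl start. Of the 13 starts, 7 held CCAAT, 5 GGGCGG and 1 CACGTG in 250 bases. Over all 32851 promoters, 33.8% held CCAAT, 32.7% GGGCGG, 6.02% CACGTG and 1.05% TCACNCCAC in 250 bases. The matches describe letters and not bound sites.

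Levels between genes were compared per length, in FPKM as deposited, in control liver before regeneration. Scd1 was the highest at 1561 ± 852 FPKM (SD, n = 4), followed by Thrsp at 293 ± 33.7 and Fasn at 228 ± 52.9, whose ranges overlapped. Mlxipl (128 ± 13.0), Acly (120 ± 24.2), Srebf1 (93.6 ± 33.4) and Me1 (81.8 ± 48.8) came next, each with a spread that reached its neighbour. Elovl6 (16.7 ± 3.87), Acaca (13.9 ± 2.64) and Acacb (12.1 ± 4.13) were the lowest and overlapped each other. Gaps without overlap lay below Scd1, below Fasn and below Me1. The lowest raw count of any member in any library was 700, for Acacb, so counting error was small against the spread between libraries.

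**Figure D1:**
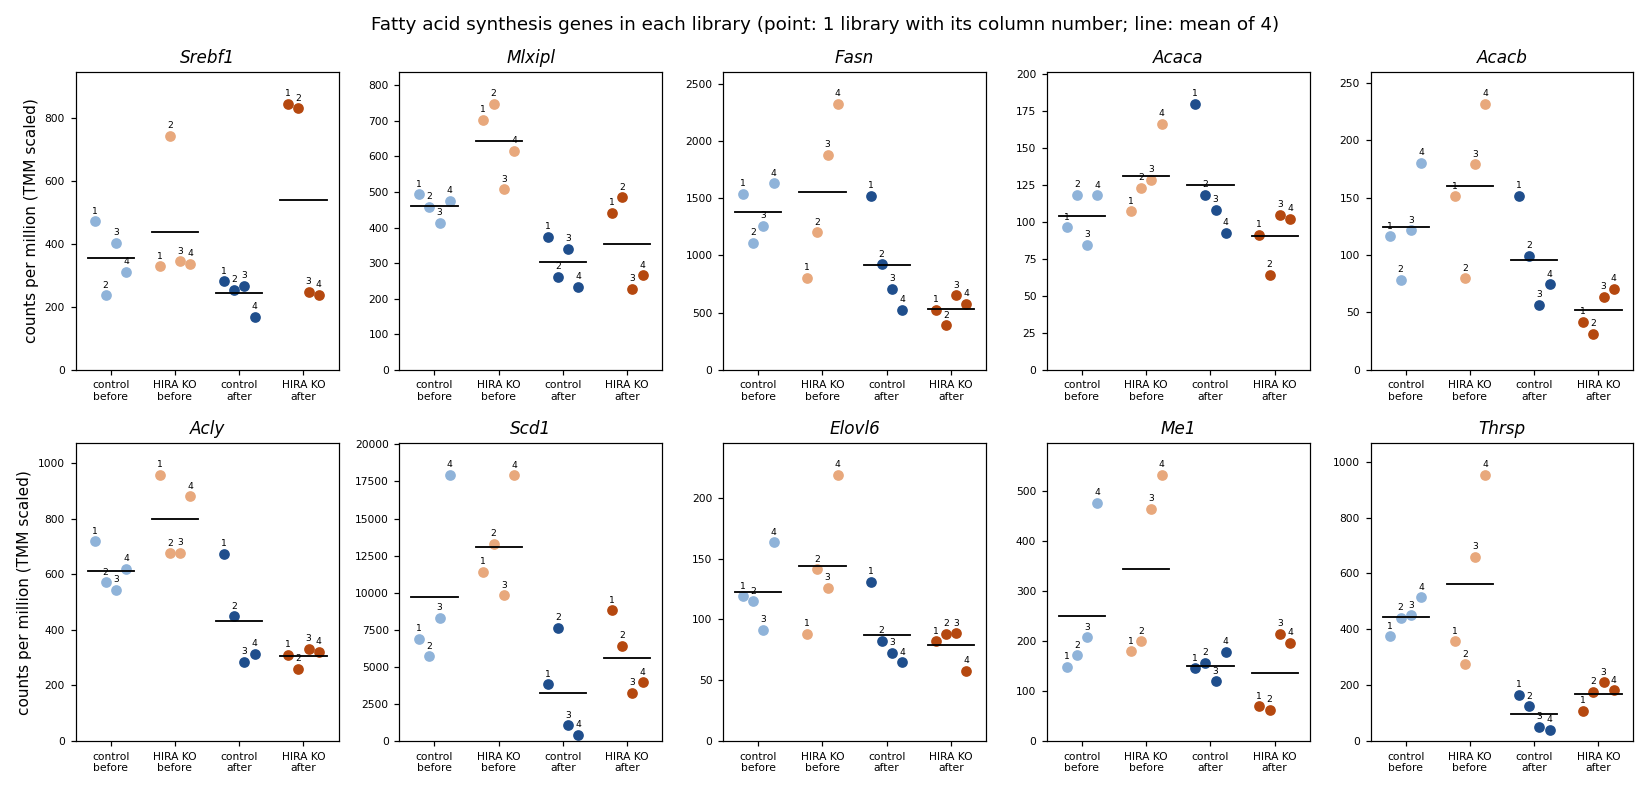
CPM (counts scaled by TMM library size) of each of the 10 genes in the 16 libraries, with the axis from 0, 1 point per library carrying its column number, and a line at the mean of each group of 4. Srebf1 in HIRA KO libraries 1 and 2 after regeneration stands at 847 and 833 CPM, while Fasn, Acacb, Acly and Thrsp in all 4 HIRA KO libraries after regeneration lie below all 4 before it.

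Whether HIRA loss alters fatty acid synthesis genes in resting liver was asked by comparing HIRA KO with control before regeneration. None of the 10 members was called at an adjusted p under 0.05 with edgeR's quasi-likelihood test, where 0.0391% of the 23018 genes tested were called. None of the members was called by DESeq2 or limma either. Over all genes DESeq2 called 375, or 2.37% of those given an adjusted p, and limma at most 4. All 10 fitted values lay above 0, from 0.16 to 0.49 on the log2 scale, with a median of 0.35 against 0.01 over all genes tested. Those values share the same libraries and are not independent of each other.

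Mlxipl had the largest of these values. Its CPM was 493, 458, 413 and 475 in the control libraries, and 702, 748, 508 and 617 in those of HIRA KO, before regeneration. Every HIRA KO library lay above every control library. The log2 fold change was 0.49 ± 0.22 (SE), with an adjusted p of 0.354 from edgeR. An exact two-sided permutation test on log2(CPM + 1) gave 0.0286, the smallest p that 4 against 4 libraries allow, and 0.408 after adjustment over the 20 such tests made. Mlxipl was the single member without overlap, in a comparison where 8.07% of all genes tested had none. Without HIRA KO libraries 1 and 2 its difference was 0.29 ± 0.17.

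The enzymes overlapped between the groups in resting liver. Acly stood at 719, 572, 543 and 620 CPM in control and at 957, 676, 677 and 880 in HIRA KO, a log2 difference of 0.38 ± 0.22. Fasn stood at 1539, 1110, 1258 and 1630 CPM in control and at 802, 1201, 1877 and 2326 in HIRA KO, so that the HIRA KO libraries lay on both sides of the controls. Scd1 ran from 5724 to 17935 CPM in control and from 9821 to 17912 in HIRA KO. Thrsp ran from 375 to 515 CPM in control and from 274 to 952 in HIRA KO. In HIRA KO, library 4 was the highest for 7 of the 10 members, and library 1 was the lowest for 5. In control, library 4 was the highest for 6. Without HIRA KO library 4 the fitted differences of Fasn, Elovl6 and Thrsp turned negative, at -0.10, -0.04 and -0.05. Library 1, which held the Adipoq reads, had the lowest Fasn and the highest Acly of that group. The part of adipocytes in these levels was not tested.

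Regeneration in control liver was examined next. Of the 10 members, 1 was called lower after regeneration than before it and none was called higher, where 4.17% of genes were called lower and 6.04% higher. The fitted values of 9 members were below 0, and their median was -0.57, against 0.00 over all genes tested. Without control library 1 after regeneration and HIRA KO library 1 before it, the pair with Adipoq reads, 4 members were called. Over all genes 10.8% were called there in either direction, against 10.2% in the main fit. HIRA KO library 1 enters this comparison only through the shared fit. Without control library 1 alone, Thrsp and Acly were called.

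Thrsp was the gene called. It stood at 375, 441, 450 and 515 CPM before regeneration and at 166, 124, 50.4 and 41.2 CPM after it. The groups were separate, and the mean after regeneration was 21.4% of that before it. The log2 fold change was -2.22 ± 0.46, with an adjusted p of 0.00803 (edgeR). Mlxipl was the other member without overlap, in a comparison where every library was lower for 8.98% of genes. It went from 413 to 493 CPM before to 373, 262, 340 and 233 CPM after regeneration, a log2 difference of -0.61 ± 0.22 with an adjusted p of 0.0885. DESeq2 called Mlxipl at an adjusted p of 0.0432, as did edgeR on the control libraries alone, at 0.0161.

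Scd1 had the widest spread of any member. In control after regeneration it read 3829, 7644, 1055 and 441 CPM, a 17.3-fold range within 1 group, against 5724 to 17935 CPM before. Libraries 3 and 4 lay below every other library of the study, while library 2 lay within the range before regeneration. The log2 fold change of -1.58 ± 0.69 had an adjusted p of 0.182, and without library 2 it was -2.45 with an adjusted p of 0.0382 (edgeR).

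Fasn in control read 1520, 921, 708 and 523 CPM after regeneration. Library 1 remained within the range before regeneration, and the other 3 libraries lay below it. The same library was the highest of its group for 8 of the 10 members, among them Acly at 674 CPM against 286 to 449 CPM in the other 3. It was also the library with Adipoq at 3.51 CPM and with Cfd, another adipocyte marker, at 25.6 CPM. The 7 adipocyte markers tested summed to 87.3 CPM there and to between 22.0 and 32.3 CPM in the other control libraries after regeneration, and their part in the level of the members was not tested. Without that library Acly was called in control, at -0.80 with an adjusted p of 0.00943 (edgeR). Acaca was the single member with a fitted value above 0, from 84.6 to 118 CPM before to 180, 118, 108 and 92.8 CPM after, a difference of 0.26 ± 0.20.

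In HIRA KO liver, 5 of the 10 members were called lower after regeneration and none higher, where 5.53% of genes were called lower and 6.48% higher. These were the regulator Mlxipl, the Spot 14 gene Thrsp, and the enzymes Acly, Acacb and Fasn. The enzymes make, in that order, cytosolic acetyl-CoA, malonyl-CoA at mitochondria, and palmitate. Acaca, which makes malonyl-CoA for synthesis, was not called. The median over the 10 members was -1.28, against 0.02 over all genes tested. Every HIRA KO library after regeneration lay below every one before it for 7 members, in a comparison where this held for 7.45% of genes. These shares include genes with few counts, down to 10 in total. With a stricter filter on low counts (filterByExpr) 20.5% of 15201 genes were called in either direction, against 12% of 23018 in the main fit. In control regeneration the shares were 18% and 10.2%. The share without overlap was not computed with that filter.

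**Figure D2:**
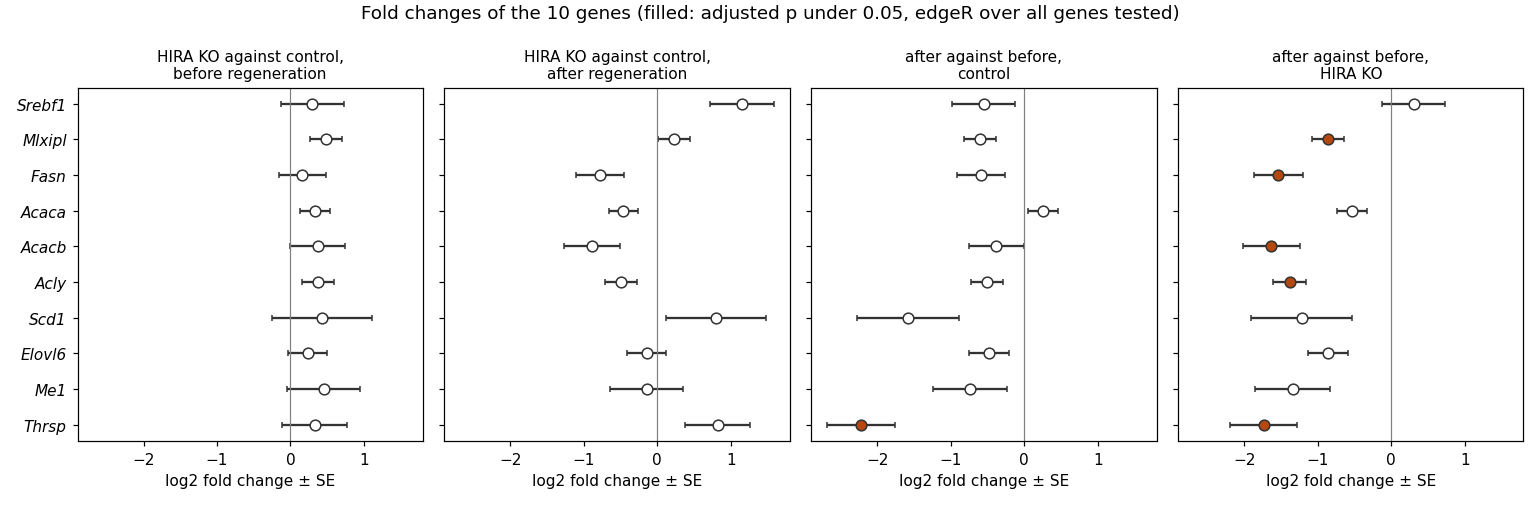
Log2 fold change with its standard error (horizontal axis) of each of the 10 genes in the 4 comparisons, filled where the adjusted p was under 0.05 with edgeR. No symbol is filled for HIRA KO against control, 1 is filled for control regeneration (Thrsp) and 5 are filled for HIRA KO regeneration.

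Acly read 957, 676, 677 and 880 CPM before regeneration in HIRA KO and 310, 259, 331 and 321 CPM after it. The 4 later values were close together and all under the earlier ones. The mean after regeneration was 38.3% of that before it, with a log2 fold change of -1.38 ± 0.22 and an adjusted p of 0.000871 (edgeR). Of the 5 members called, Acly was called in each of the 11 other settings and in each of the 8 fits that left out 1 library of these groups.

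Fasn read 802, 1201, 1877 and 2326 CPM before regeneration and 523, 388, 650 and 577 CPM after it in HIRA KO. The highest later library lay under the lowest earlier one. The mean fell to 34.4% of that before, with a log2 fold change of -1.54 ± 0.33 and an adjusted p of 0.00803 (edgeR). On the deposited FPKM the difference was smaller and was not called, at -0.85 with an adjusted p of 0.0709 (limma, log2(FPKM + 1)). CPM divided by FPKM ran from 3.61 to 6.58 for Fasn over the libraries, and from 3.61 to 4.43 in HIRA KO after regeneration. For the other 9 members the highest of these ratios was between 1.24 and 1.39 times the lowest, and for Fasn it was 1.82 times.

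Acacb read 151, 79.6, 179 and 232 CPM before regeneration and 41.9, 31.1, 63.5 and 70.3 CPM after it in HIRA KO. Each later library was below each earlier one. The log2 fold change was -1.63 ± 0.39 with an adjusted p of 0.0154 (edgeR). Without HIRA KO libraries 1 and 2 at both times it was -1.60 with an adjusted p of 0.0640. Acaca, the other carboxylase, read 107, 123, 129 and 166 CPM before and 91.2, 64.2, 105 and 102 CPM after. Its groups did not overlap either, by a small margin, and its log2 difference of -0.54 ± 0.20 had an adjusted p of 0.0941.

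Thrsp read 358, 274, 660 and 952 CPM before and 108, 175, 210 and 182 CPM after regeneration in HIRA KO. The groups were separate and the spread before regeneration was wide. The log2 fold change was -1.73 ± 0.46 with an adjusted p of 0.0249 (edgeR), and the call was lost without HIRA KO library 3 or 4 before regeneration, or library 1 or 2 after it, at adjusted p-values from 0.0555 to 0.0791. In those 4 fits the log2 fold change ran from -1.35 to -1.73. It was also lost without a filter on low counts (-1.72, adjusted p 0.0548) and without libraries 1 and 2 at both times (-2.03, adjusted p 0.0702). Mlxipl read 702, 748, 508 and 617 CPM before and 441, 485, 227 and 266 CPM after. Its log2 fold change was -0.86 ± 0.22 with an adjusted p of 0.0167 (edgeR), and 0.0525 without HIRA KO library 2 before or library 3 after regeneration. It was not called when only the HIRA KO libraries were fitted (-0.84 ± 0.26, adjusted p 0.0777). Without libraries 1 and 2 at both times it was -1.18, still called.

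The other members were not called in HIRA KO regeneration. Elovl6 went from 88.3, 141, 126 and 219 CPM to 81.9, 88.4, 88.5 and 57.5 CPM, a log2 difference of -0.86 ± 0.27 at an adjusted p of 0.0516. It was called by DESeq2, with filterByExpr, without the robust option, and without HIRA KO library 1 before regeneration (adjusted p 0.0192, edgeR). Me1 went from 179, 200, 465 and 532 CPM to 69.3, 62.3, 214 and 196 CPM, and DESeq2 called it as well. Its libraries 1 and 2 were the lower at both times. Scd1 went from between 9821 and 17912 CPM to 8823, 6432, 3271 and 3971 CPM, without overlap and at an adjusted p of 0.278. Srebf1 was the single member with a fitted value above 0, at 0.30 ± 0.43.

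Other measures moved with the same contrast. The mitochondrial share of counts went from 6.02 to 6.76% before to 4.43 to 5.46% after regeneration in control, and from 5.80 to 6.97% to 4.14 to 6.01% in HIRA KO. Of 5 endothelial markers, 1 was called lower in each genotype. Of 6 Kupffer cell and macrophage markers, 5 were called higher after regeneration in control and 5 in HIRA KO. Their summed level ran from 181 to 437 CPM before and from 599 to 765 CPM after in control, and from 251 to 330 CPM before and from 675 to 918 CPM after in HIRA KO. The 8 hepatocyte markers summed to between 114700 and 165217 CPM in control and between 123217 and 167675 CPM in HIRA KO over both times, with 1 of 8 called lower in each. In bulk liver, fewer hepatocytes and less RNA per hepatocyte cannot be told apart, and the part of these shifts in the members was not tested.

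Whether HIRA KO and control livers differ in these genes once regeneration has taken place was asked in the later samples. None of the 10 members was called with edgeR, where 0.491% of genes were called. DESeq2 and limma called none. Over all genes DESeq2 called 910, or 5.93% of those given an adjusted p, and limma at most 67. The 113 genes called by edgeR became 5 to 452 with 1 library of these groups left out (452 without HIRA KO library 4 after regeneration) and 0 when these 2 groups were fitted alone. No member was free of overlap between the groups, which 8.1% of genes were. The fitted values had both signs, with 4 above and 6 below 0, from -0.88 for Acacb to 1.15 for Srebf1.

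Srebf1 read 281, 255, 268 and 170 CPM in control and 847, 833, 249 and 239 CPM in HIRA KO after regeneration. Libraries 3 and 4 of HIRA KO lay within the control range, and libraries 1 and 2 were the highest of all 16 libraries. The fitted difference of 1.15 ± 0.43 had an adjusted p of 0.209, and without libraries 1 and 2 it was 0.02 ± 0.25. Before regeneration, library 2 of HIRA KO was also high, at 744 CPM against 329 to 346 CPM in the other 3. The log2 difference between HIRA KO and control before regeneration was 0.30 ± 0.43, and it turned to -0.08 without that library.

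Fasn, Acacb and Me1 were not high in the libraries where Srebf1 was highest. HIRA KO libraries 1 and 2 after regeneration held Fasn at 523 and 388 CPM, Acacb at 41.9 and 31.1 CPM and Me1 at 69.3 and 62.3 CPM. The Acacb and Me1 values were the lowest of the study. Fasn was 0.617 and 0.466 times the Srebf1 level in CPM there, and between 1.61 and 6.89 times in the other 14 libraries. Scd1 in contrast read 8823 and 6432 CPM there and 3271 and 3971 CPM in libraries 3 and 4. Scd1 was therefore 16.9 and 16.6 times the CPM of Fasn in libraries 1 and 2, the highest of the 16 ratios, which went down to 0.843 in control library 4 after regeneration. Mid1ip1, which encodes a partner of acetyl-CoA carboxylase related to Spot 14, read 113 and 124 CPM in libraries 1 and 2 and 58.8 and 64.9 CPM in 3 and 4. Elovl6 read 81.9 and 88.4 CPM in libraries 1 and 2 and 88.5 and 57.5 CPM in 3 and 4. Before regeneration, HIRA KO library 1 had the lowest Fasn and Me1 of its group (802 and 179 CPM) with Srebf1 at 329 CPM.

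**Figure D3:**
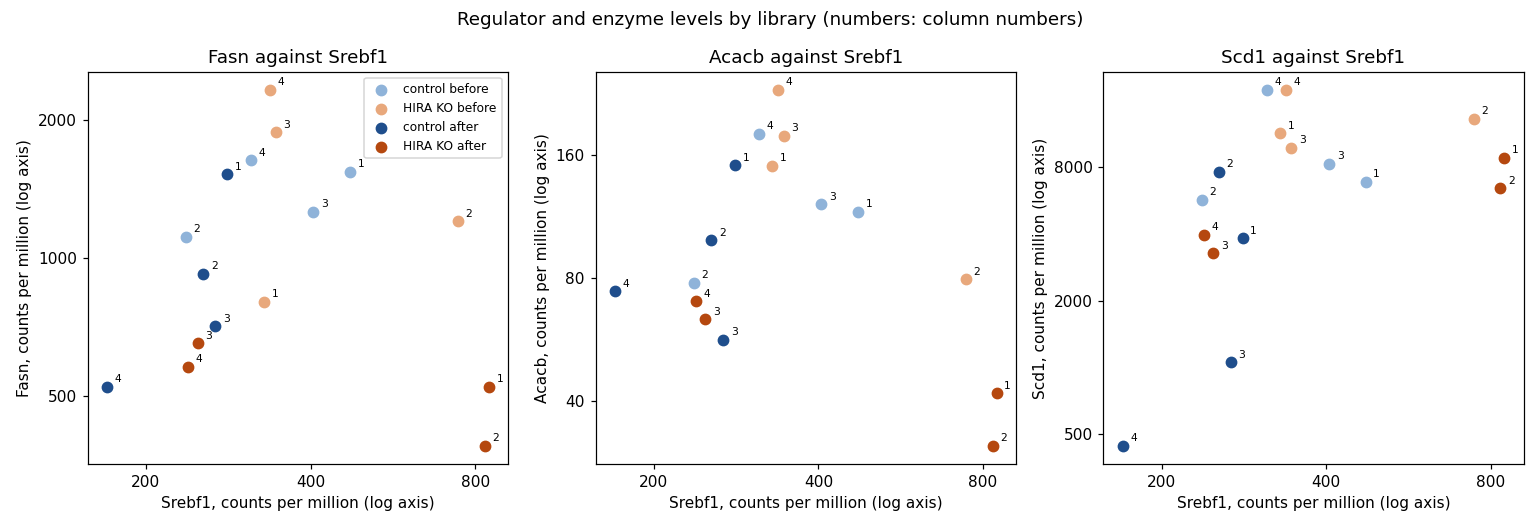
CPM of Fasn, Acacb and Scd1 (vertical, log axes) against CPM of Srebf1 (horizontal, log axis), 1 point per library, coloured by group and carrying the column number. HIRA KO libraries 1 and 2 after regeneration lie at the far right with Srebf1 at 847 and 833 CPM, at the bottom for Fasn and Acacb and in the middle of the range for Scd1.

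For the other members after regeneration, Fasn differed by -0.78 ± 0.33, Acacb by -0.88 ± 0.38, Acly by -0.50 ± 0.22 and Acaca by -0.46 ± 0.20 between HIRA KO and control, with adjusted p-values from 0.259 to 0.277. Thrsp differed by 0.82 ± 0.45 and Scd1 by 0.79 ± 0.68. Elovl6 and Me1 both differed by -0.15, with errors of 0.27 and 0.50. The exact permutation p-values of the 10 members ran from 0.114 to 0.743 here.

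Whether the response to regeneration differed with HIRA loss was tested as an interaction, the HIRA KO difference after regeneration minus that before it. None of the 10 members passed, and 0% of all genes tested were called with edgeR. DESeq2 called 67 genes, or 0.413% of those given an adjusted p, and none was a member. Acly had the smallest p, with an interaction of -0.88 ± 0.31 at an adjusted p of 0.561. Acaca had -0.79 ± 0.29 and Acacb -1.25 ± 0.54. The 5 calls in HIRA KO and the 1 call in control are therefore not shown to differ. The responses side by side, from separate libraries in the same model, were as follows. Fasn had -0.59 ± 0.33 in control and -1.54 ± 0.33 in HIRA KO, and Acly had -0.51 ± 0.22 and -1.38 ± 0.22.

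Genes around the pathway were counted in lists, with the members left out. HIRA KO against control gave 0 calls in all 10 lists before regeneration, where 0.0391% of all genes were called. After it, 2 genes were called over the lists, where 0.491% of all genes were called. Ciart, a clock repressor, read 0.344 to 0.689 CPM in control and 14.0, 34.3, 4.51 and 3.28 CPM in the HIRA KO libraries. Its log2 fold change was 4.76 ± 0.77 with an adjusted p of 0.0383 (edgeR), and 2.94 ± 0.44 with 0.0210 without HIRA KO libraries 1 and 2. With 1 library left out, its adjusted p ran from 0.00696 to 0.115. Dhcr7, a late enzyme of cholesterol synthesis, stood at 78.1 ± 17.8 against 161 ± 39.7 CPM, a change of -1.04 ± 0.22 with an adjusted p of 0.0464 (edgeR). Without HIRA KO libraries 1 and 2 it was not called (-0.82, adjusted p 0.207), and with 1 library left out its adjusted p ran from 0.0264 to 0.178. Fitted on these 2 groups alone, neither gene was called. The interaction gave 0 calls in all 10 lists.

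**Figure D4:**
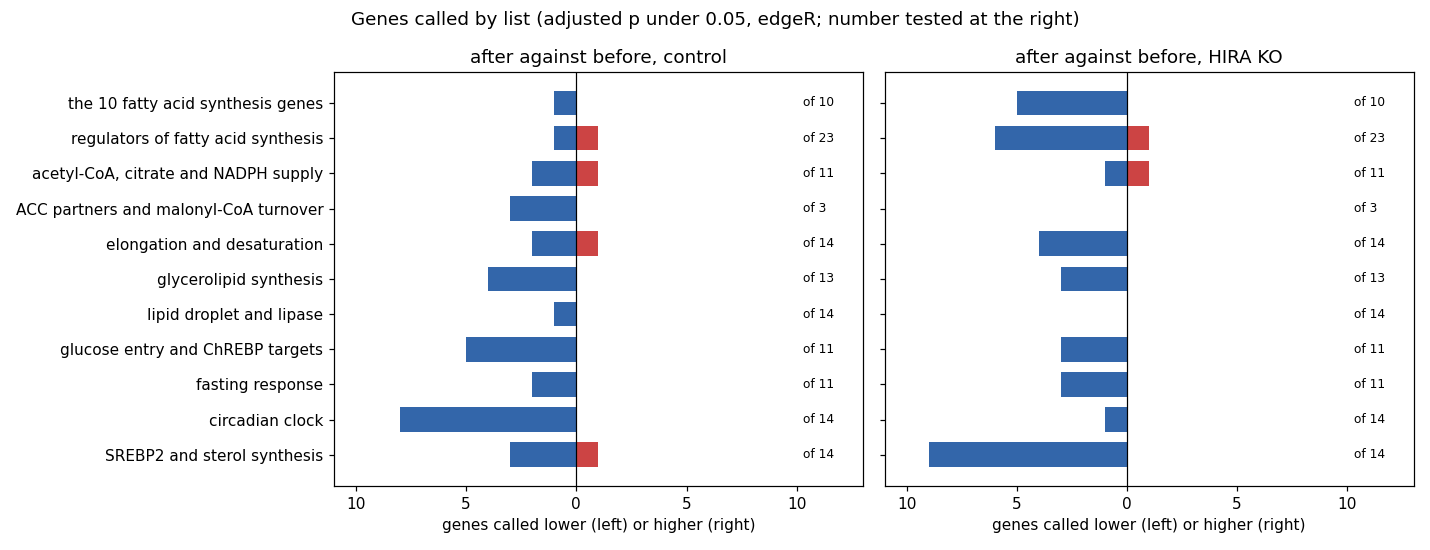
Genes called lower (bars to the left) or higher (bars to the right) after against before regeneration in control and in HIRA KO, for the 10 members and 10 lists of neighbouring pathways, with the number tested at the right of each bar. The longest bars are the 8 clock genes called lower in control and the 9 sterol genes called lower in HIRA KO.

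Regulators of lipogenesis gave 1 higher and 1 lower call among 23 genes in control regeneration and 1 higher and 6 lower in HIRA KO. The list medians were -0.17 and -0.32. Over all genes 4.17% were called lower and 6.04% higher in control, and 5.53% and 6.48% in HIRA KO. These shares apply to the lists that follow too. The control counts of the regulators were near them. Usf2, an E-box factor of lipogenic promoters, fell from 40.3 to 28.2 CPM in control and from 47.7 to 31.8 CPM in HIRA KO, while Usf1 rose from 17.6 to 23.0 CPM in HIRA KO. Insig1, which holds SREBP precursors in the endoplasmic reticulum and is itself an SREBP target, fell from 635 ± 144 to 267 ± 79.2 CPM in HIRA KO (log2 fold change -1.25 ± 0.23, adjusted p 0.00225, edgeR). In control Insig1 was 444 and 381 CPM and not called. Prkaa1, a subunit of the kinase AMPK that inhibits both carboxylases, rose from 11.9 to 17.2 CPM in control.

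In the list for acetyl-CoA, citrate and NADPH, 1 gene of 11 was called higher and 2 lower in control, and 1 higher and 1 lower in HIRA KO. Acss2, which makes acetyl-CoA from acetate, fell from 269 to 136 CPM in control and from 280 to 101 CPM in HIRA KO. Mdh1, the cytosolic malate dehydrogenase, fell from 513 to 387 CPM in control. Pgd, a pentose phosphate enzyme that makes NADPH, went the other way, from 67.3 to 163 CPM in control and from 86.7 to 160 CPM in HIRA KO (adjusted p 0.00153 and 0.0131, edgeR). All 3 genes around the carboxylases were called lower in control and none in HIRA KO. Mid1ip1 fell there from 100.2 to 45.3 CPM, Mlycd, which breaks malonyl-CoA down, from 67.6 to 49.6 CPM, and Hlcs, which attaches biotin to carboxylases, from 17.3 to 11.6 CPM.

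Of 14 genes of elongation and desaturation, 1 was called higher and 2 lower in control, and 4 lower in HIRA KO. Elovl2, an elongase of polyunsaturated chains, fell from 590 to 382 CPM in control and from 863 to 485 CPM in HIRA KO, and Tecr, the last reductase of the elongation cycle, fell in both by a log2 change of -0.48 and -0.45. Fads1, a desaturase, fell from 497 to 290 CPM in HIRA KO. Elovl1, which acts on very long chains, rose from 58.4 to 81.1 CPM in control.

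Glycerolipid synthesis had 4 of 13 genes called lower in control and 3 in HIRA KO. Acsl1, which activates fatty acids to acyl-CoA, fell from 1000.2 to 467 CPM in control and from 1041 to 493 CPM in HIRA KO (adjusted p 0.000185 and 0.000199, edgeR). Lpin1, a phosphatidate phosphatase, fell from 250 to 50.9 CPM and from 246 to 43.5 CPM. Dgat2, which makes triglyceride, fell from 540 to 276 CPM in control, and Gpam, which starts glycerolipid synthesis, fell from 375 to 205 CPM in HIRA KO. Among 14 lipid droplet and lipase genes, Plin4 was called lower in control and none in HIRA KO.

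In the list of glucose entry and ChREBP targets, 5 of 11 genes were called lower in control and 3 in HIRA KO, and the others were called in neither direction. Over all genes 4.17% and 5.53% were called lower. Txnip, a ChREBP target, fell from 92.2 to 41.1 CPM in HIRA KO, and Arrdc4, another, from 18.7 to 9.82 CPM in control. G6pc, which releases glucose and is also a ChREBP target, fell from 1015 to 140 CPM in control and from 853 to 192 CPM in HIRA KO. In the fasting list, 2 of 11 genes were called lower in control and 3 in HIRA KO, and most were called in neither direction. Pck1, a gluconeogenic enzyme that fasting raises, fell from 3174 to 994 CPM in control and from 3422 to 1478 CPM in HIRA KO, and Tat fell by -1.95 and -1.78. Igfbp1, which insulin lowers, fell from 202 to 39.3 CPM in HIRA KO.

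Clock genes had 8 of 14 called lower in control and 1 in HIRA KO, with list medians of -1.12 and -0.29. Npas2 and Arntl, activators of the clock, had fitted values above 0 in control and were not called. Npas2 ran from 1.24 to 6.70 CPM before and from 8.83 to 14.2 CPM after regeneration (1.58 ± 0.73, adjusted p 0.212, edgeR), and Arntl from 9.14 to 28.4 CPM and from 27.8 to 39.7 CPM (0.90 ± 0.54, adjusted p 0.358). Hlf, Nr1d2 and Tef fell by -0.92, -1.04 and -1.77 in control. Nr1d1, a repressor that oscillates over the day, fell by -1.29 in HIRA KO. Dbp, a clock output gene whose level changes strongly over the day, ran from 7.10 to 46.7 CPM in control before regeneration and from 0.872 to 3.38 CPM after it, and from 5.64 to 87.04 CPM in HIRA KO after it. HIRA KO library 2 after regeneration, with the lowest Fasn of the study, had the highest Dbp and the highest Ciart (34.3 CPM). Control library 4 after regeneration held Fasn at 523 and Dbp at 3.17 CPM. HIRA KO library 4 before it held Fasn at 2326 and Dbp at 49.2 CPM. These libraries were picked after their values were seen, and they differ in genotype and time. Lipogenic genes also vary over the day, and the part of the sampling hour in the members was not tested. Of 14 genes of SREBP2 and sterol synthesis, 1 was called higher and 3 lower in control and 9 lower in HIRA KO. Stard4, a sterol carrier, was called lower in both genotypes, by log2 values of -0.92 (control) and -1.03 (HIRA KO).

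The genes with the pattern most like that of the members were found by Pearson's r with the mean of the 10 standardised log2(CPM + 1) profiles over 16 libraries. They were Efcab2 (r = 0.94), Letm2 (0.92), Lamc3 (0.92), Aacs (0.90) and Abhd14b (0.90). Aacs, which activates acetoacetate in the cytosol for lipid synthesis, averaged 83.7 CPM, while Efcab2, Letm2 and Lamc3 averaged 2.94 to 3.40 CPM. After subtraction of group means the leading genes were Efcab2 (0.86), Kdm3b (0.86), Ggnbp2 (0.86), Prpf6 (0.85) and Slc22a15 (0.85). The libraries share group, depth and scaling, and the values are a description.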

How the data were processed

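PolyA RNA of 16 liver samples was sequenced. By the study's methods, the authors used Trim Galore for trimming, STAR for alignment to mm10 and HOMER for counting per gene, and the deposited table held raw counts. The submitters' processing notes name STAR, HTSeq and Cufflinks. The deposited FPKM (fragments scaled by transcript length and depth) came from a tool that no source used here ties to the table, although Cufflinks computes FPKM, and empty cells were read as 0. The library kit marks strand, but the strand setting of the counting is not given, so reads of genes antisense to Srebf1, Mlxipl, Acaca, Acacb, Elovl6 and Me1 could not be told apart from theirs (at most 4044 counts over 16 libraries, for Rai1 at Srebf1).

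Genes with at least 10 counts in total (23018) were fitted in 1 model of 4 group means with edgeR (version 4.0.16, R 4.3.3), TMM scaling and its robust quasi-likelihood F test. P-values were adjusted by Benjamini-Hochberg over all tested genes, and genes were called at an adjusted p under 0.05. CPM used TMM library sizes. Standard errors are the absolute log2 fold change over the square root of F. Alternatives used DESeq2 (1.42.0), limma (3.58.1) on log2(FPKM + 1) and log2(FPKM + 0.1), other scalings and filters, and left out libraries. The code was tested on simulated data. Precision follows from 15103059 to 21738619 counts per library. The members and lists were chosen with earlier results of these data known. From each list, up to 3 called genes with the smallest p per comparison were named. Some genes that this rule selects are not reported here. Dbp, Npas2, Arntl, Mid1ip1 after regeneration, and the adipocyte markers Adipoq, Cfd, Cidec, Plin1, Retn, Fabp4 and Lipe were named after their values were seen. Coordinates are from GENCODE M21, whose IDs matched for all 10 members.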

Additional observations from a re-analysis of the deposited data

Results flagged for a closer look

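Of the 40 groups of 4 libraries (10 members in 4 groups), 1 held a library far from the other 3 by Dixon's ratio, and chance alone flags about 1 in 20. It was Srebf1 in HIRA KO before regeneration, where library 2 read 744 CPM against 329 to 346 CPM in the others. No member's response to HIRA loss was shown to differ between the times by the interaction test.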

How the results depend on the processing

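No paired analysis was possible because the columns carry a running number that is in no label, and not the mouse or replicate number of the labels. Fits with mouse as a block or the deletion approach as a covariate were not run for the same reason. No member was called for HIRA KO against control at either time, or for the interaction, in any setting or with any library left out. For control regeneration, where 1 member was called, 2 were called by DESeq2, 2 with only the libraries of the groups compared and 1 to 2 with 1 library left out. Over all genes the same settings called more as well, 3282 with DESeq2 and 3275 on the groups alone against 2350. For HIRA KO regeneration the 5 calls became 4 to 6 with 1 library left out and 4 to 7 in the other planned settings, 7 of them with DESeq2. Over all genes DESeq2 called 3654 there and the groups alone 1431, against 2764. A pair of alternatives was chosen after seeing the data. Without HIRA KO libraries 1 and 2 at both times, 2 members were called in control and 3 in HIRA KO (Mlxipl, Fasn and Acly). Over all genes 3858 were called in control and 2225 in HIRA KO in that fit, against 2350 and 2764 in the main fit. The member counts moved in the same direction as those of all genes. Without HIRA KO library 1 before and control library 1 after regeneration, 4 members were called in control and 7 in HIRA KO. The 4 were Thrsp, Acly, Fasn and Elovl6. Over all genes 2419 were called in control and 2770 in HIRA KO in that fit. Of 50 fold changes, no call changed direction, and the fitted values that changed sign were not called. With 1 library left out, HIRA KO against control before regeneration ran from -0.082 to 0.47 for Srebf1, from -0.098 to 0.38 for Fasn, from -0.044 to 0.41 for Elovl6 and from -0.047 to 0.56 for Thrsp. After regeneration it ran from -0.22 to 0.11 for Elovl6 and from -0.44 to 0.11 for Me1, and the interaction of Scd1 from -0.090 to 1.24. Without HIRA KO libraries 1 and 2, HIRA KO against control became -0.061 for Srebf1 before regeneration and -0.28 for Mlxipl and 0.47 for Me1 after it, Srebf1 in HIRA KO regeneration became -0.47, and the interaction of Scd1 became -0.34. Without the pair with Adipoq reads, Elovl6 after regeneration became 0.11.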
